A study of Mus musculus with 15 samples.

Results

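Macrophages, monocytes and neutrophils are phagocytes of the innate immune system, and 42 genes listed for them were followed in mouse distal colon. The genes were taken from a list of symbols that covers receptors, adaptors, integrins, lysosomal proteins, oxidase subunits and regulators of these cells. Membership of the list does not make a gene particular to them. The list was chosen with earlier results of these data known. Of the 42 genes, 35 had a row in at least 1 of the 3 deposited count tables and 30 had a row in all 3, out of 12897 genes with a row in any table. RNA-seq covered 15 libraries of whole distal colon, 3 in each of 5 groups, and all mice were of strain C57BL/6 (B6). The groups were untreated wildtype mice in 2 separately tabulated sets (control set 1 and control set 2), wildtype mice at day 26 (D26) of AOM/DSS, untreated Irf1-/- mutants, and Irf1-/- mutants at D26 of AOM/DSS. The model used mice of 8 to 10 weeks of age. Treated mice received 7 mg/kg of the carcinogen azoxymethane (AOM) on day 1 and drank 2% dextran sulfate sodium (DSS), a polymer that damages the lining of the colon, from day 8 to day 11. The mutants carry the deletion of Irf1, which encodes a transcription factor of the interferon response, in all of their cells and not only in phagocytes. The labels number the libraries of a group without stating that each came from a separate mouse, so the p-values measure the spread between these libraries.

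Resident macrophages of the colonic lamina propria take up bacteria and dying cells and are replenished from blood monocytes, and after epithelial injury monocytes and neutrophils enter the tissue. Fc receptors and C-type lectins bind material to be engulfed, and some of them signal through small adaptors. Engulfed material is destroyed in lysosomes by cathepsins and lysozymes and by the superoxide that the NADPH oxidase makes. IRF1 binds interferon-responsive DNA elements in promoters, and PU.1, encoded by the list member Spi1, is the lineage factor that opens many phagocyte promoters. In bulk colon RNA, fewer cells of a type and less RNA per cell cannot be told apart.

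Promoter sequences from RefSeq (build GRCm38.p6, 250 bases before to 50 bases after the start of a gene) were found for 30 of the 42 genes. The deposited counts were made on build mm9 per the submitters' processing notes, so the promoters are shown as sequence context only. Ctss, which encodes cathepsin S, is shown because it was the member that differed between genotypes in both treatment states, and Cybb, which encodes the catalytic subunit of the phagocyte oxidase, because it held the most copies of the same motif. Each line gives the 250 bases before the start, read 5′ to 3′ on the strand of the gene, with every match to the interferon-regulatory element (GAAA, any 2 bases, GAAA) on either strand in capitals. Ctss lies on the plus strand at chr3:95526536-95526785 and Cybb on the minus strand at chrX:9469325-9469574.
Ctss: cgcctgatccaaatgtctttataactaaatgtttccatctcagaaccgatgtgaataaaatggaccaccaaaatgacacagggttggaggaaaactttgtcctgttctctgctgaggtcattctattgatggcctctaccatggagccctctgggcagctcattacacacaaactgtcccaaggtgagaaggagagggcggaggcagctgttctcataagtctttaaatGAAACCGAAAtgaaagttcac
Cybb: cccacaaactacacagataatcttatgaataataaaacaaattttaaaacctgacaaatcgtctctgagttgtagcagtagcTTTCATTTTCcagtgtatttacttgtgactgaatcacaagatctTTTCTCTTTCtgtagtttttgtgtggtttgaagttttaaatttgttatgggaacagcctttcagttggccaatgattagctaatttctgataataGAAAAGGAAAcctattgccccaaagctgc
The Ctss promoter held 1 match, which began 21 bases before the start, and the Cybb promoter held 3. The element was present in a promoter of 6 of the 30 genes (20%), against 3.44% of the 32851 promoters of the table. The PU.1 element GAGGAAGT, searched on both strands, was present for 4 of the 30 genes (13.3%), Ctss among them, against 3.2% of all promoters. The shares of the list count genes, some with more than 1 promoter, while the shares beside them count promoters. The matches of the 2 patterns in Ctss did not overlap, and a match is a description of the sequence and not evidence of binding.

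The 2 lysozyme genes of the list are neighbours on the minus strand, and their sequences are shown because 50 bp reads can fail to tell them apart. In the 250 bases before the start of Lyz1 (chr10:117292869-117293118) and of Lyz2 (chr10:117282273-117282522), capitals mark the bases that differ in an alignment of both or stand opposite a gap.
Lyz1: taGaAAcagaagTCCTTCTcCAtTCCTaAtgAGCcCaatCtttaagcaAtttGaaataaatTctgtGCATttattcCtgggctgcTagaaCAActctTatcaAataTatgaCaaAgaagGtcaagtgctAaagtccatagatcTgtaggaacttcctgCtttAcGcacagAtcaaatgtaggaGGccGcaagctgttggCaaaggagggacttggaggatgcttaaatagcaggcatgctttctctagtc
Lyz2: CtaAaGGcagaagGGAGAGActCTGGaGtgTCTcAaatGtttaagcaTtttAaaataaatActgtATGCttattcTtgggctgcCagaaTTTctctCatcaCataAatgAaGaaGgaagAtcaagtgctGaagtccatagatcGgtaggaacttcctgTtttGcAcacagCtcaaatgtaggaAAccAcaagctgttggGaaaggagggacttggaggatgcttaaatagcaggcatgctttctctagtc
These stretches were identical at 200 of 252 aligned positions (79.4%). The longest transcripts of the genes (1263 and 1316 bases) were 92.0% identical, and 195 of the 1214 windows of 50 bases in Lyz1 (16.1%) were also present in Lyz2. Values of Lyz1 and Lyz2 are therefore uncertain where reads could be assigned to either. Values of Fcgr2b, Fcgr3, Lilrb4 and Clec4n, which belong to families of close copies, may be uncertain as well. Shared windows were not counted for them.

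The counted reads of a library totalled 22266607 to 22869853, and levels are given as CPM, read counts scaled by library size, after TMM normalisation of the 15 libraries to 1 scale. Reads on Irf1 itself were 79.4 to 123 CPM in the 6 mutant libraries and 128 to 227 CPM in the 9 B6 libraries, without overlap. Reads thus remained in the mutants, and the labels do not say which part of the gene is deleted, so genotype was checked by level only. All 12 colon epithelium markers had a row, and of 7 markers of small intestine and Paneth cells only Fabp2 did. Xist was at 5.97 to 25.2 CPM in libraries 1 and 2 of treated B6 and library 1 of treated mutants and at 321 to 3729 CPM elsewhere. The slope of a library's counts on GC content was 0.137 to 0.286 log2 units per 10% GC in treated B6 and -0.124 to 0.0317 in the other libraries.

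The genes ranged widely in level. Per kilobase of transcript, the mean level over the untreated B6 libraries was highest for Ctss (218 CPM per kb), followed by Lyz2 (129 CPM per kb) and Cyba (67.1 CPM per kb), the subunit that anchors the oxidase in the membrane. The lowest were Adam8 (1.31 CPM per kb, control set 1 only), a metalloprotease that sheds surface proteins of leukocytes, and Lilrb4 (1.77 CPM per kb), an inhibitory receptor of myeloid cells. No row was present for 7 members: the calprotectin subunits S100a8 and S100a9, the Fc receptors Fcgr1 and Fcgr4, the lectins Clec4d and Clec4e, and Spi1. The authors kept only genes at 5 CPM or more in at least 3 libraries of a table, and rows under other symbols of these 7 were not searched. They were therefore not analysed here. Of 11 neutrophil markers, only Csf3r and Cxcr2 had a row, and their summed level was 97.9 to 109 CPM in treated B6 and 114 to 123 CPM in control set 1. In the mutants this sum was 105 to 125 CPM with treatment and 137 to 141 CPM without it. The values below therefore concern mostly genes that macrophages, monocytes and dendritic cells express as well as neutrophils.

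The libraries differed in the level of the genes as a group. The plot of library medians gives, for each library, the median over the 30 genes of the log2 deviation from the mean of the 15 libraries. All 3 treated mutant libraries (0.31 to 0.41) lay above the 3 untreated ones (-0.33 to -0.09). Treated B6 libraries spread from 0.07 to 0.60, and control set 1 from -0.28 to 0.20. Control set 2 was lowest, at -0.53 to -0.15. Over all 12370 genes in the 3 tables, the same median stayed within 0.013 of 0 in every library.

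**Figure D1:**
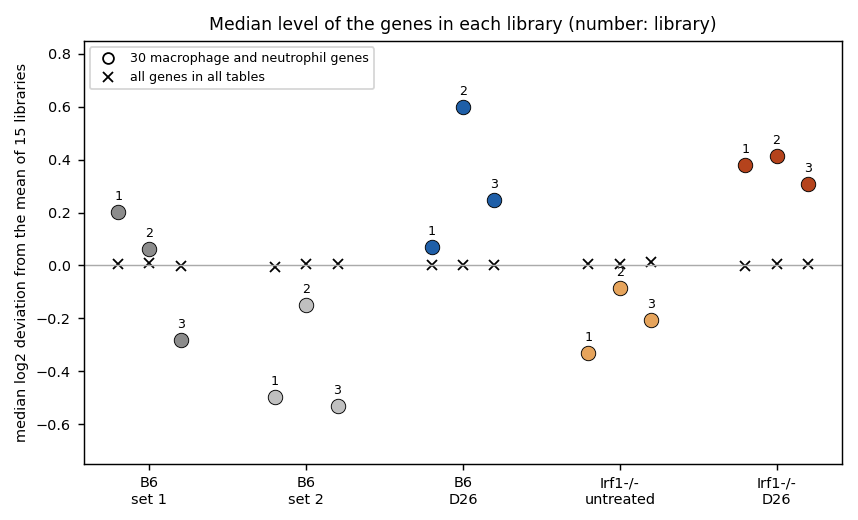
Median log2 deviation of the 30 genes (circles, 1 per library, numbered) and of all 12370 genes (crosses) from the mean of the 15 libraries, by group. Treated mutant libraries lie close together at 0.31 to 0.41, and treated B6 libraries spread from 0.07 to 0.60.

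The comparison of treated with untreated Irf1-/- mutants asked which of the genes changed with AOM/DSS in the absence of IRF1. Calls, upregulated or downregulated, required a fold change (FC) of 1.5 or more and an adjusted p under 0.01 (Benjamini-Hochberg over all genes of the table, in the quasi-likelihood test of edgeR). Of the 33 genes with a row, 7 were upregulated (Mpeg1, Sirpa, Adam8, Lilrb4, Runx1, Lyz1 and Fcgr2b) and 0 were downregulated, where 0.205% of the 12692 genes tested were upregulated. At an adjusted p under 0.05, 18 of the 33 were higher, against 1.5% of all genes, and 31 had an unadjusted p under 0.05, against 18.6%. Because the list was chosen with earlier results of these data known, these shares describe it and are not an independent test. The log2 FC was above 0 for 31 of 33, with a median of 0.59 against 0.00675 over all genes. The treated libraries all lay above the untreated ones for 29 genes and all below them for 1, against 12.2% and 13% of all genes. For 5 of the 33 (Fcer1g, Clec7a, Clec4n, Ncf4 and Adam8) fewer than 3 untreated libraries reached the 5 CPM of the authors' filter, so their presence in the table rested on the treated group, and of the other 28 genes 6 were upregulated.

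**Figure D2:**
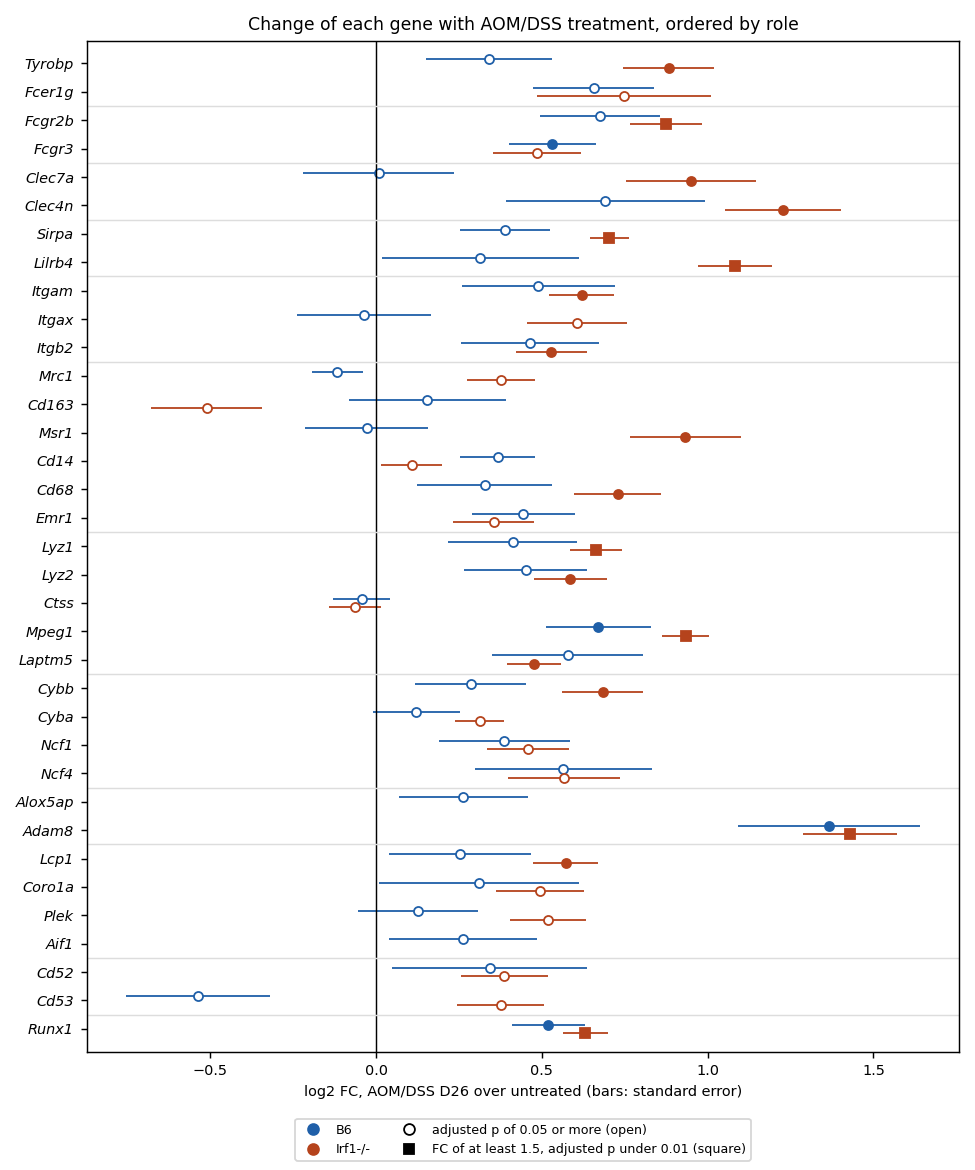
Log2 FC with AOM/DSS (horizontal axis, bars are standard errors) of the 35 genes in B6 (blue) and of 33 of them in Irf1-/- mutants (red), grouped by role. Filled symbols have an adjusted p under 0.05 (4 in B6, 18 in mutants), and squares mark the 7 genes called upregulated.

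Among receptors and adaptors, Tyrobp, the adaptor that relays signals from many activating receptors of myeloid cells, stood at 6.22, 8.41 and 7.10 CPM in untreated mutants and at 13.6, 13.6 and 12.8 CPM in treated ones. The groups did not overlap, and the log2 FC was 0.88 ± 0.14 (SE, edgeR adjusted p = 0.0226). Fcgr2b, the inhibitory Fc gamma receptor, was at 11.8, 13.04 and 13.6 CPM in untreated and at 21.6, 26.1 and 22.8 CPM in treated mutants, a log2 FC of 0.87 (adjusted p = 0.00901). Fcgr3, the low-affinity activating receptor, had a log2 FC of 0.49 (adjusted p = 0.0957). Of the lectins, Clec7a (dectin-1, a receptor for fungal beta-glucan) had a log2 FC of 0.95 (adjusted p = 0.0449) and Clec4n (dectin-2) one of 1.23 (adjusted p = 0.0175).

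Sirpa and Lilrb4, inhibitory receptors like Fcgr2b, also rose. Sirpa encodes the receptor through which the surface protein CD47 restrains phagocytosis. It was at 38.8, 40.1 and 39.8 CPM in untreated mutants and at 65.5, 63.0 and 64.4 CPM in treated ones. The 2 groups were each tight and far apart, with a log2 FC of 0.70 ± 0.059 (SE, edgeR adjusted p = 0.00407). Lilrb4 was at 6.49, 6.99 and 6.44 CPM without treatment and at 13.8, 14.5 and 13.8 CPM with it. Its log2 FC of 1.08 ± 0.11 (SE, edgeR adjusted p = 0.00665) corresponds to a 2.12-fold higher level.

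The integrin chains of Itgam and of Itgax each pair with that of Itgb2 to form adhesion receptors of phagocytes. Itgam, which encodes CD11b, was at 14.7, 16.2 and 16.5 CPM in untreated and at 23.1, 23.3 and 26.3 CPM in treated mutants. All treated libraries were higher, and the log2 FC of 0.62 ± 0.098 (SE, edgeR adjusted p = 0.0226) did not pass the threshold for a call. Its partner Itgb2 (CD18) had a log2 FC of 0.53 (adjusted p = 0.0429) and Itgax (CD11c) one of 0.61 (adjusted p = 0.0777).

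Scavenger and pattern receptors had log2 FC from -0.51 to 0.93. Msr1, a scavenger receptor for modified lipoproteins, was at 5.25 to 6.18 CPM in untreated and at 9.61 to 13.7 CPM in treated mutants (log2 FC 0.93, adjusted p = 0.0322). Cd68, a lysosomal glycoprotein of macrophages, had a log2 FC of 0.73 (adjusted p = 0.0322). Cd163, the receptor for haemoglobin bound to haptoglobin that resident macrophages carry, was the only gene with all treated libraries lower. It was at 18.2, 21.7 and 26.3 CPM in untreated and at 12.5, 15.9 and 18.0 CPM in treated mutants, a log2 FC of -0.51 that missed the threshold (adjusted p = 0.146). Emr1, which encodes the macrophage antigen F4/80, had a log2 FC of 0.35 (adjusted p = 0.162) and Cd14, the coreceptor for lipopolysaccharide, one of 0.11 (adjusted p = 0.596).

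Among lysosomal and antimicrobial genes, Mpeg1 had the smallest p of the list. It encodes perforin-2, a pore-forming protein of macrophages. Untreated mutants had 41.7, 40.2 and 41.0 CPM and treated ones 71.1, 82.2 and 80.9 CPM. All treated libraries lay well above the untreated ones, and the log2 FC was 0.93 ± 0.072 (SE, edgeR adjusted p = 0.00328). Lyz1 was at 36.4, 42.3 and 38.5 CPM in untreated and at 58.6, 61.0 and 65.5 CPM in treated mutants (log2 FC 0.66 ± 0.078, SE, edgeR adjusted p = 0.00772). Lyz2, with which Lyz1 shares sequence, had a log2 FC of 0.59 (adjusted p = 0.0371). Laptm5, a lysosomal membrane protein of leukocytes, had a log2 FC of 0.48 (adjusted p = 0.0295). Ctss did not follow the others: its levels overlapped between the groups, with a log2 FC of -0.06 (adjusted p = 0.727).

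The 4 oxidase genes had log2 FC from 0.31 to 0.68, and all 4 had treated mutant libraries above untreated ones. Cybb was at 16.8, 23.0 and 19.9 CPM in untreated and at 33.5, 33.0 and 29.2 CPM in treated mutants, a log2 FC of 0.68 (adjusted p = 0.0322). The adjusted p was 0.0675 for Cyba, 0.0935 for Ncf1 and 0.118 for Ncf4, the last 2 of which encode cytosolic subunits.

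Adam8 had the largest log2 FC of the list. It was at 4.44, 5.56 and 4.24 CPM in untreated and at 12.6, 12.99 and 12.8 CPM in treated mutants, and its log2 FC of 1.43 ± 0.14 (SE, edgeR adjusted p = 0.00665) is a 2.69-fold higher level. Runx1, a transcription factor of blood cell development that epithelial and other cells also express, was at 28.1, 28.3 and 27.1 CPM in untreated and at 42.2, 44.2 and 42.6 CPM in treated mutants. Its log2 FC was 0.63 ± 0.067 (SE, edgeR adjusted p = 0.00665). Of the actin regulators of leukocytes, Lcp1 (plastin) had a log2 FC of 0.57 (adjusted p = 0.0295), Plek (pleckstrin) one of 0.52 (adjusted p = 0.0549) and Coro1a (coronin) one of 0.49 (adjusted p = 0.0908). The surface proteins Cd52 and Cd53, which lymphocytes carry as well, stood at 0.39 and 0.38 (log2 FC, adjusted p = 0.16 and 0.174).

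The calls in mutants depended on the full set of libraries and on the test. None of the 7 remained called when untreated library 1, 2 or 3 or treated library 2 was left out, 7 remained without treated library 1 and 5 without treated library 3. Of all genes, 0.00788%, 0% and 0% were called without untreated library 1, 2 or 3, and 0.0394% without treated library 2. The share was 0.481% without treated library 1 and 0.252% without treated library 3. With 1 library left out, the median log2 FC of the 33 genes was 0.52 to 0.64. DESeq2 called 15 (1.74% of all genes) and edgeR's exact test 16 (1.96%), in both cases including the 7, while limma voom called 5 of them (0.165%). With log2 Xist, which was low in treated library 1, as a covariate, 2 were called (Mpeg1 and Sirpa, against 0.118% of all genes).

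**Figure D3:**
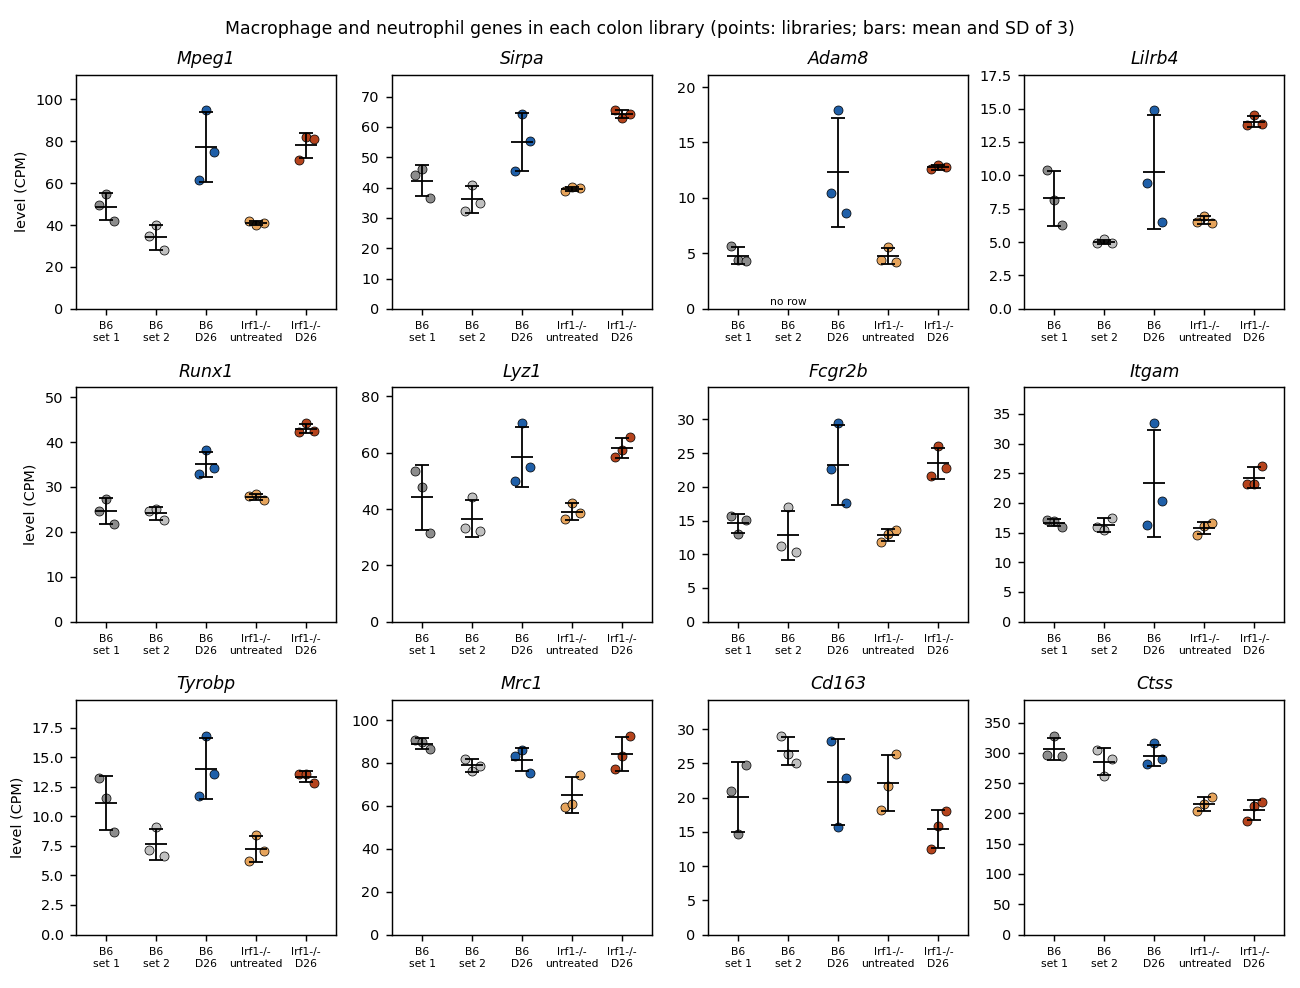
Level in CPM (vertical axis, from 0) of 12 genes in every library, by group, with the mean and SD of 3. The 7 genes called upregulated in mutants come first, treated mutants are tightly grouped for most of them while treated B6 libraries are spread, and Ctss is lower in both mutant groups than in all B6 groups.

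In B6 mice the same comparison, of D26 with control set 1, was made on 35 genes. edgeR's quasi-likelihood test called 0 of 35, where 0.0316% of the 12643 genes tested were called upregulated. The unadjusted p was under 0.05 for 13 genes (29.5% of all genes), DESeq2 called 3 (Adam8, Fcgr2b and Mpeg1, against 3.49% of all genes), the exact test the same 3 (3.64%), and limma voom 0 of these or any other genes. At an adjusted p under 0.05, 4 genes were higher and 0 lower, against 3.95% and 4.52% of all genes. With the GC correction and with log2 Xist as a covariate this count was 0 of 35 (0.757% and 0.127% of all genes), measures in which all 3 and 2 of the treated B6 libraries, respectively, stood apart from the controls. The log2 FC was above 0 for 30 of 35, with a median of 0.34 against 0.012 over all genes. Treated libraries all lay above untreated ones for 7 genes and all below for 1, against 16.4% and 18.1% of all genes. For 6 of the 35 (Fcer1g, Clec4n, Ncf4, Alox5ap, Adam8 and Aif1) fewer than 3 control libraries reached 5 CPM.

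The 4 genes were Adam8, Runx1, Mpeg1 and Fcgr3, of which Adam8 was in the table through the treated group, leaving 3 of the 29 genes with all control libraries at 5 CPM or more. Adam8 was at 5.68, 4.36 and 4.35 CPM in control set 1 and at 10.4, 17.9 and 8.62 CPM in treated B6 (log2 FC 1.37 ± 0.27, SE, edgeR adjusted p = 0.0254). Runx1 was at 24.7, 27.4 and 21.6 CPM without and at 32.8, 38.2 and 34.2 CPM with treatment (log2 FC 0.52 ± 0.11, SE, edgeR adjusted p = 0.029). Library 2 of treated B6 was the highest for both genes. Mpeg1 was at 49.4, 55.0 and 41.9 CPM in control set 1 and at 61.5, 94.8 and 75.1 CPM in treated B6 (log2 FC 0.67 ± 0.16, SE, edgeR adjusted p = 0.0385). Fcgr3 was at 15.1, 19.7 and 15.5 CPM in control set 1 and at 22.5, 26.5 and 23.3 CPM in treated B6 (log2 FC 0.53 ± 0.13, SE, edgeR adjusted p = 0.0422). For each of these 4 genes the groups did not overlap.

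Fcgr2b and the adaptor Fcer1g, the gamma chain of several Fc receptors, came next. Fcgr2b was at 15.7, 12.99 and 15.1 CPM in control set 1 and at 22.6, 29.4 and 17.5 CPM in treated B6, with a log2 FC of 0.68 ± 0.18 (SE, edgeR adjusted p = 0.0513). Fcer1g was at 4.98, 5.24 and 3.90 CPM in control set 1 and at 6.24, 8.19 and 7.70 CPM in treated B6, with a log2 FC of 0.66 ± 0.18 (SE, edgeR adjusted p = 0.0565). Neither reached an adjusted p under 0.05, and neither overlapped between groups. Itgam was at 17.1, 17.0 and 15.97 CPM in control set 1 and at 16.2, 33.4 and 20.3 CPM in treated B6, so that 1 treated library lay within the control range and library 2 far above it. Its log2 FC was 0.49 ± 0.23 (SE, edgeR adjusted p = 0.193). Lyz1 was at 53.4, 47.9 and 31.3 CPM in control set 1 and at 50.1, 70.5 and 54.8 CPM in treated B6, with overlapping groups and a log2 FC of 0.41 ± 0.19 (SE, edgeR adjusted p = 0.193). Cd53 had the lowest log2 FC of the list in B6, at -0.54 (adjusted p = 0.138).

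The spread in B6 was shared between genes. Library 2 of treated B6 was the highest of the 3 for 32 of the 35 genes, and library 1 was the lowest for 26. In control set 1, library 3 was the lowest for 27 of the 30 genes in all tables. Without treated library 2, the median log2 FC was 0.25 and 2 genes (Adam8 and Runx1) kept an adjusted p under 0.05, as did 8.77% of all genes. Without control library 1, 2 or 3, 0 genes reached it (0.127% to 0.759% of all genes). Without treated library 3 only Adam8 did (1.13%), and without treated library 1, 9 did (12.1%). With control set 2 in place of set 1, the median rose to 0.64 over 30 genes, 17 had an adjusted p under 0.05 (14.8% of all genes) and Mpeg1 was called (0.572%).

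**Figure D4:**
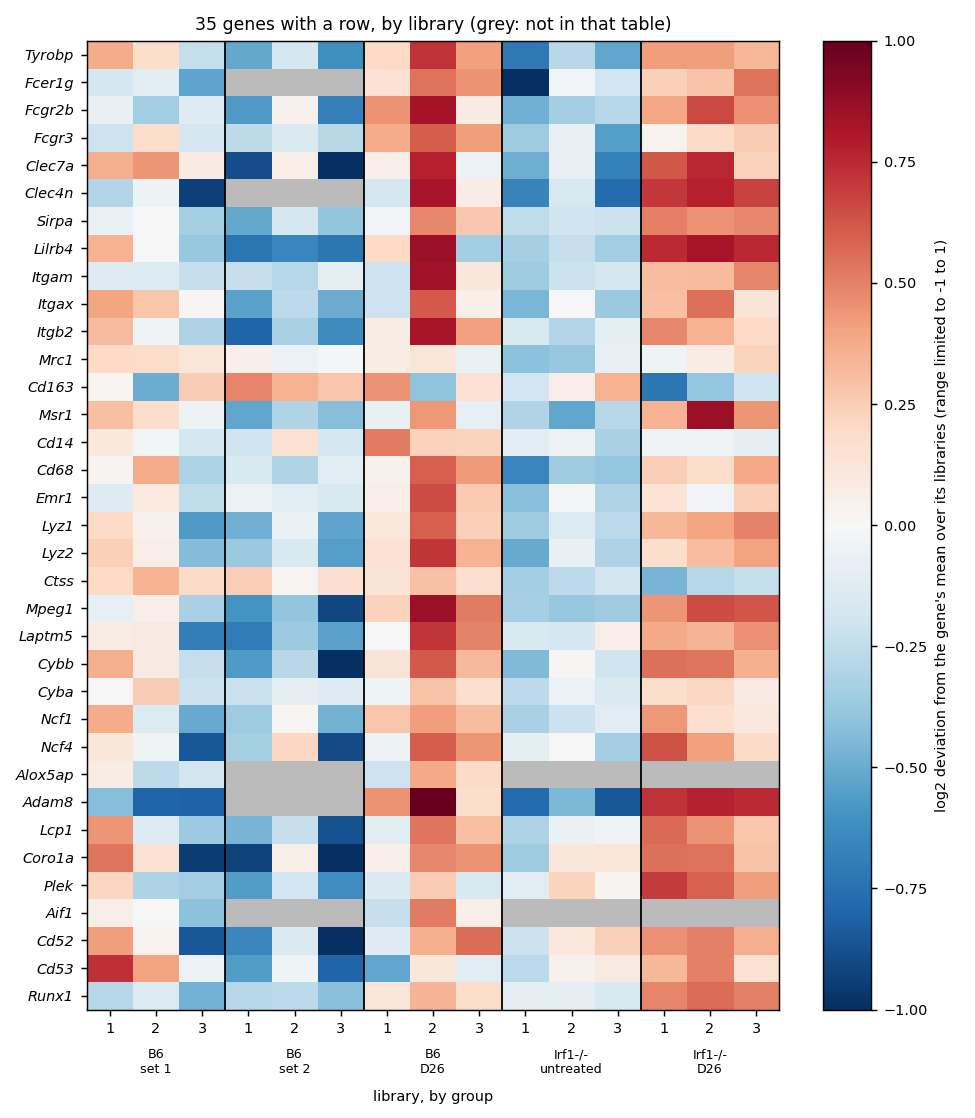
Log2 deviation of each of the 35 genes from its own mean over the libraries in which it was listed (colour, limited to -1 to 1), by library and group; grey cells are tables without a row. Library 2 of treated B6 stands out as high for 32 of the 35 genes within its group, and control set 2 is mostly low.

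Whether the change with treatment differed between genotypes was tested as an interaction in 1 fit of 12 libraries. Of 33 genes, 0 differed by the call threshold and 0 at an adjusted p under 0.05 in edgeR, where 0.016% of 12483 genes were called with a larger change in mutants and 0.024% passed an adjusted p under 0.05 in that direction. The unadjusted p was under 0.05 for 7 genes (16.9% of all genes). DESeq2 also called 0, but gave 3 genes an adjusted p under 0.05, all with a larger change in mutants (3.22% of all genes in either direction). The difference was above 0 (a larger change in mutants) for 27 of 33, with a median of 0.20 against 0.011 over all genes. That median was 0.41 without library 2 of treated B6 and -0.04 with control set 2 in place of set 1, so its size and sign rested on the control libraries chosen and on 1 treated library.

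The 6 genes with the smallest p in this test were Msr1, Mrc1, Cd53, Clec7a, Itgax and Tyrobp. Msr1 was at 9.29, 8.501 and 7.27 CPM in control set 1 and at 7.16, 10.2 and 7.13 CPM in treated B6, and its interaction was 0.97 ± 0.26 (SE, edgeR adjusted p = 0.108). Mrc1, the mannose receptor of resident macrophages, was at 90.9, 89.8 and 86.3 CPM in control set 1 and at 83.3, 86.1 and 75.4 CPM in treated B6. In mutants Mrc1 was at 59.7, 60.7 and 74.6 CPM without and at 77.0, 83.2 and 92.6 CPM with treatment. Against control set 1 the B6 libraries were thus lower with treatment and the mutant ones higher, and the interaction was 0.50 ± 0.13 (SE, edgeR adjusted p = 0.112). The B6 direction depended on that choice, since control set 2 (81.8, 76.1 and 78.7 CPM) overlapped treated B6, and the log2 FC of Mrc1 in B6 was 0.06 with control set 2 and 0.05 with the GC correction. For Cd53 it was 0.92 ± 0.28 (SE, edgeR adjusted p = 0.136), for Clec7a 0.95 ± 0.32 (SE, edgeR adjusted p = 0.179), for Itgax 0.65 ± 0.28 (SE, edgeR adjusted p = 0.259) and for Tyrobp 0.55 ± 0.25 (SE, edgeR adjusted p = 0.283). It was 0.14 ± 0.28 for Itgam and 0.26 ± 0.23 for Lyz1 (SE, edgeR adjusted p = 0.849 and 0.617). Without library 2 of treated B6, Clec7a and Msr1 reached an edgeR adjusted p under 0.05 (0.043 and 0.0402), as did 2.17% of all genes. The 6 genes were lower on average in control set 2 than in set 1, against which these interactions were computed. For Clec7a, Cd53 and Itgax the log2 FC of set 2 over set 1 was -0.87, -0.82 and -0.67. For Msr1, Tyrobp and Mrc1 it was -0.56, -0.55 and -0.17 (edgeR adjusted p of the 6 from 0.0568 to 0.22). With control set 2, the interaction of Itgax was -0.019.

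Pooling the genotypes as a description, 3 of the 30 genes in all tables (Fcgr2b, Mpeg1 and Runx1) had all 6 treated libraries above all 9 untreated ones, against 1.38% of all genes, and 0 had them all below, against 0.889%. Mpeg1 was at 61.5 to 94.8 CPM in treated and at 27.9 to 55.0 CPM in untreated libraries.

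The genotypes were compared directly in both states, to ask what loss of IRF1 did to the same genes before and after treatment. Ctss was the member that stood apart. It encodes a lysosomal cysteine protease that trims the invariant chain of MHC class II in antigen-presenting cells. Untreated mutants had 204, 215 and 227 CPM of Ctss and treated mutants 187, 211 and 219 CPM. B6 mice had 297, 328 and 295 CPM in control set 1, 305, 262 and 290 CPM in control set 2 and 282, 316 and 289 CPM at D26. All 6 mutant libraries lay below all 9 B6 libraries, which none of the other members with rows in all tables did and 0.873% of all genes did.

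In untreated mutants against control set 2, edgeR called 0 of 30 genes, where 0.318% of 12588 genes were called downregulated and 0.0874% upregulated. The unadjusted p was under 0.05 for 10 genes (10.4% of all genes), and DESeq2, the exact test and limma voom also called 0. At an adjusted p under 0.05, 1 gene was lower, Ctss, with a log2 FC of -0.41 ± 0.077 (SE, edgeR adjusted p = 0.038), against 0.81% of all genes. In treated mutants against treated B6, 0 of 33 genes were called, where 0.312% of 12483 genes were called downregulated, and DESeq2, the exact test and limma voom called 0 as well. There the unadjusted p was under 0.05 for 7 genes (22% of all genes), and at an adjusted p under 0.05 Ctss alone was lower (log2 FC -0.54 ± 0.096, SE, edgeR adjusted p = 0.0305), against 1.11% of all genes. The fold was under 1.5 in both states. The direction was the same in every alternative and with every library left out, with log2 FC from -0.36 to -0.51 in untreated and from -0.48 to -0.61 in treated mice. The adjusted p was above 0.05 for 4 of 6 fits that left out an untreated library and for 5 of 6 that left out a treated one.

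**Figure D5:**
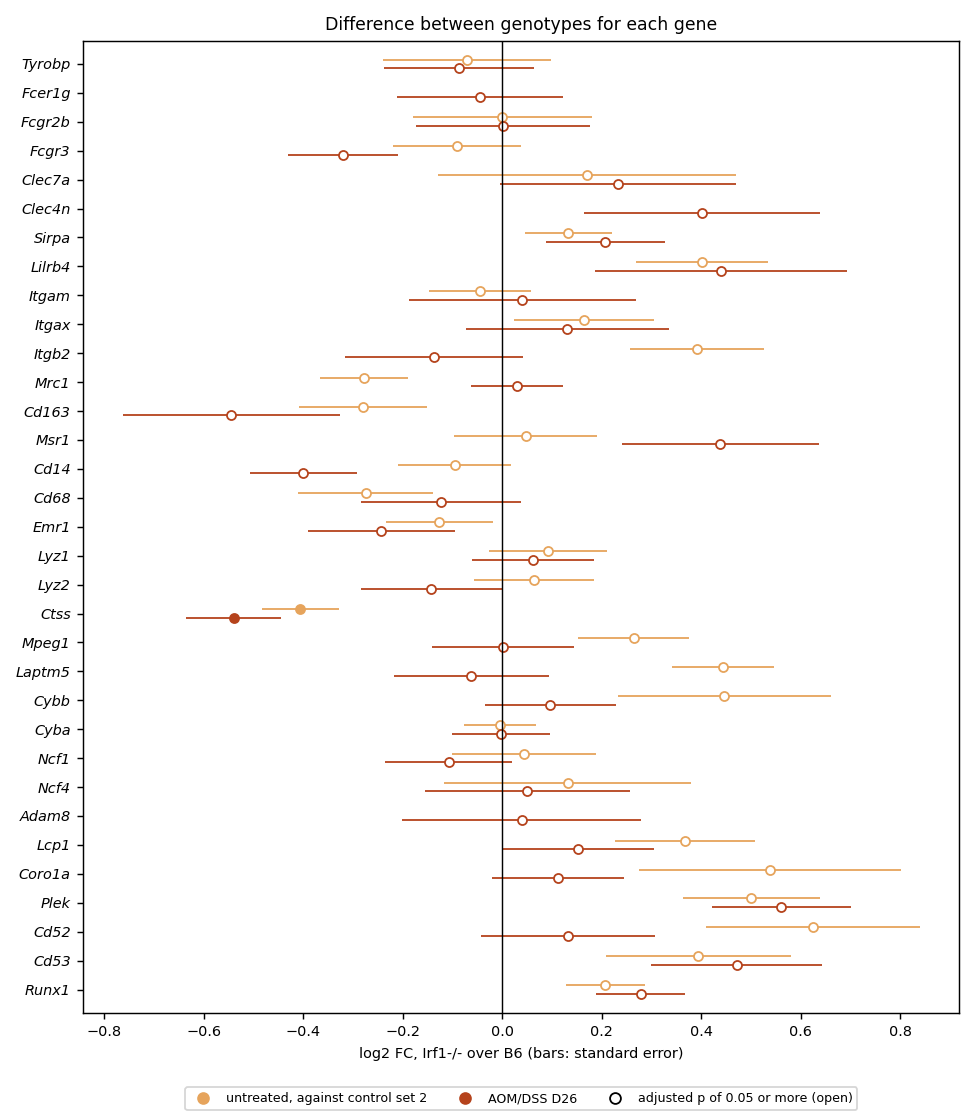
Log2 FC of Irf1-/- over B6 (horizontal axis, bars are standard errors) for 30 genes in untreated mice (orange, against control set 2) and 33 genes in treated mice (red). Ctss, at -0.41 and -0.54, has the only filled symbols, which mark an adjusted p under 0.05.

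The other genes lay on both sides of 0. The median log2 FC of untreated mutants over control set 2 was 0.11 (20 of 30 above 0), with all mutant libraries above set 2 for 6 genes and below for 3, against 7.83% and 7.61% of all genes. Against control set 1 the median was -0.19, with 6 of 30 above 0, and 3 genes had an adjusted p under 0.05, all lower (Ctss at 0.00205, Mrc1 at 0.0122 and Clec7a at 0.047), as had 5.46% of all genes. The sign of the median in untreated mutants therefore depended on which B6 set was the control. Laptm5 was at 34.2, 33.7 and 39.9 CPM in untreated mutants and at 23.5, 29.5 and 26.2 CPM in control set 2 (log2 FC 0.44 ± 0.10, SE, edgeR adjusted p = 0.0895). Library 3 of control set 1 was at the low end of that range as well, at 23.5 CPM. Plek was at 17.1, 21.4 and 18.7 CPM in untreated mutants and at 12.5, 16.04 and 11.9 CPM in control set 2 (log2 FC 0.50 ± 0.14, SE, edgeR adjusted p = 0.168). Mrc1 had a log2 FC of -0.28 ± 0.088 (SE, edgeR adjusted p = 0.244), Lilrb4 of 0.40 ± 0.13 (SE, edgeR adjusted p = 0.276) and Cd52 of 0.62 ± 0.21 (SE, edgeR adjusted p = 0.304). All 7 B and plasma cell markers tested were higher in untreated mutants than in control set 2, with a median log2 FC of 1.14. None had an edgeR adjusted p under 0.05 (7 had an unadjusted p under 0.05). The direction depended on the control set. Their summed level was 318 to 446 CPM in untreated mutants, 243 to 277 CPM in set 2 and 607 to 707 CPM in set 1. The part of these markers in the values of the list was not tested. Itgam (log2 FC -0.04, adjusted p = 0.938) and Lyz1 (log2 FC 0.09, adjusted p = 0.872) lay near 0.

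In treated mice the median log2 FC of mutants over B6 was 0.04, with 20 of 33 above 0. It was 0.19 without library 2 of treated B6, when Clec4n and Plek also passed an adjusted p under 0.05 (4.61% of all genes), and -0.06 without library 1. Treated mutants lay wholly above treated B6 for 3 genes (Plek, Runx1 and Cd53) and wholly below for 3 (Ctss, Cd14 and Fcgr3), against 14.5% and 13% of all genes. Plek was at 29.7, 27.6 and 24.4 CPM in treated mutants and at 16.6, 21.9 and 16.4 CPM in treated B6 (log2 FC 0.56 ± 0.14, SE, edgeR adjusted p = 0.0743). Cd14 was at 28.1, 28.2 and 26.9 CPM in treated mutants and at 41.2, 33.7 and 33.6 CPM in treated B6 (log2 FC -0.40 ± 0.11, SE, edgeR adjusted p = 0.0899). Plek was thus higher and Cd14 lower in every treated mutant library, without passing the threshold. Runx1 had a log2 FC of 0.28 ± 0.089 (SE, edgeR adjusted p = 0.124), Fcgr3 of -0.32 ± 0.11 (SE, edgeR adjusted p = 0.147) and Cd53 of 0.47 ± 0.17 (SE, edgeR adjusted p = 0.161). Itgam (log2 FC 0.04, adjusted p = 0.937) and Lyz1 (log2 FC 0.06, adjusted p = 0.804) lay near 0, as did Mpeg1 (log2 FC 0.0015, adjusted p = 0.996).

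The B6 control sets carry the same labels, and their comparison measures how far untreated B6 libraries differ. edgeR called 0 of 30 genes, where 0.0403% of 12417 genes were called downregulated in set 2, and the unadjusted p was under 0.05 for 12 genes (17.2% of all genes). DESeq2 called 2 (Cd53 and Itgax, against 1.16% of all genes), the exact test 1 (Itgax, 1.3%) and limma voom 0. The log2 FC of set 2 over set 1 was below 0 for 29 of 30, with a median of -0.30 against -0.0033 over all genes, and set 2 lay wholly below set 1 for 8 genes and wholly above for 1, against 11% and 10.4% of all genes. Itgax was at 22.8, 21.0 and 17.4 CPM in set 1 and at 11.9, 14.4 and 12.2 CPM in set 2 (log2 FC -0.67 ± 0.13, SE, edgeR adjusted p = 0.0568). Mpeg1 (-0.51, adjusted p = 0.0981), Lilrb4 (-0.72, adjusted p = 0.1), Cd53 (-0.82, adjusted p = 0.102), Msr1 (-0.56, adjusted p = 0.113) and Itgb2 (-0.58, adjusted p = 0.13) followed by log2 FC and adjusted p in edgeR. Itgam had a log2 FC of -0.03 (adjusted p = 0.897) and Lyz1 one of -0.27 (adjusted p = 0.487). Cd163 was the exception, higher in set 2 at a log2 FC of 0.41 (adjusted p = 0.23). The summed level of 7 B and plasma cell markers was 607 to 707 CPM in set 1 and 243 to 277 CPM in set 2, and its part in the difference was not tested.

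Markers of whole cell types were compared beside these values. The summed level of 8 macrophage markers, which share Emr1 and Cd68 with the list, was 281 to 382 CPM in control set 1 and 378 to 456 CPM in treated B6. It was 241 to 281 CPM in untreated and 346 to 395 CPM in treated mutants. The sum of 7 endothelial markers was 174 to 187 CPM in control set 1 and 208 to 222 CPM in treated B6, and 172 to 179 CPM in untreated and 201 to 244 CPM in treated mutants. Some markers of other blood cells were also higher in treated mutants: the mast cell proteases Mcpt1 (log2 FC 2.53, adjusted p = 0.0273) and Mcpt2 (2.66, adjusted p = 0.0342), Cd4 of T cells (0.90, adjusted p = 0.0343) and the platelet chemokine Ppbp (3.33, adjusted p = 0.00901). Cd8b1 of T cells (-0.46, edgeR adjusted p = 0.0753) and the eosinophil marker Il5ra (-0.22, adjusted p = 0.312) had all treated mutant libraries lower. Kit (0.21), Thy1 (0.29), Pf4 (0.45) and Alas2 (0.085) had an adjusted p of 0.118 to 0.85. In B6, the log2 FC of Ppbp was 3.11 (adjusted p = 0.0194), and Mcpt1 and Mcpt2 were not tested. In untreated mutants Mcpt1, Mcpt2 and Ppbp had means of 3.74, 1.58 and 4.55 CPM, under the 5 CPM of the authors' filter. Ppbp had a mean of 4.27 CPM in control set 1. Their presence in the tables thus rested on the treated groups. Treated mutants had 21.5 ± 12.1 CPM of Mcpt1, 10.04 ± 6.81 CPM of Mcpt2 and 45.6 ± 26.7 CPM of Ppbp (SD, n = 3). The part of any of these markers in the changes was not tested.

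Of 177 further myeloid genes in 5 lists (receptors and signalling, complement C1q and lysosome, granule proteins, transcription factors, dendritic cells), 110 were tested in mutants. Of these 2 were upregulated, against 0.205% of all genes. At an adjusted p under 0.05, 20 were higher and 0 lower, against 1.5% and 0.875% of all genes. The median log2 FC was 0.25, against 0.00675 over all genes. In B6, 113 were tested and 1 was upregulated, against 0.0316% of all genes. There 13 were higher and 0 lower at an adjusted p under 0.05, against 3.95% and 4.52% of all genes. The median was 0.20, against 0.012 over all genes. Whether these shares differ from those of the 42 genes was not tested. Ltf (lactoferrin), a granule protein of neutrophils that epithelia also make, was upregulated in both genotypes, from 15.7 ± 4.79 to 138 ± 54.6 CPM in B6 and from 14.1 ± 6.499 to 123 ± 43.8 CPM in mutants (SD, n = 3), with log2 FC of 3.14 and 3.12 (edgeR adjusted p = 0.00685 and 0.00713). Apoe, an apolipoprotein that macrophages secrete, was upregulated in mutants, from 235 ± 13.2 to 385 ± 32.4 CPM (SD, n = 3, log2 FC 0.71, edgeR adjusted p = 0.00713).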

How the data were processed

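RNA from distal colon was depleted of ribosomal RNA, made into stranded libraries and read as 50 bp pairs, and the authors deposited whole-number read counts per gene in 3 tables (B6, Irf1-/- and untreated mice). Per the submitters' processing notes, the tools were TopHat2 2.0.9, Bowtie 1.0.0, featureCounts and edgeR, with build mm9. The authors kept genes at 5 CPM or more in at least 3 libraries. Not used were 36 columns of per-library CPM values and, in each table, 6 columns of the authors' own comparison (fold changes and p-values). The counts of untreated Irf1-/- libraries were identical in both of their tables.

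The members and the other gene lists were chosen with earlier results of these data known. Each comparison was fitted with edgeR's quasi-likelihood test (edgeR 4.0.16, R 4.3.3, TMM factors) on the counts of all its genes, with Benjamini-Hochberg adjustment over all of them. The difference between responses and treated mutants against treated B6 were fitted on the 12483 genes shared by the B6 and Irf1-/- tables. Levels are CPM after TMM normalisation over the 12370 genes in all tables. Groups not overlapping means that every library of one group exceeded every library of the other. Full statistics are given for up to 6 members per comparison with the smallest p and for Itgam and Lyz1 (S100a8 and S100a9 had no row), and for other lists for up to 3 genes. Alternatives were DESeq2 1.42.0, limma voom (limma 3.58.1), edgeR's exact test, other size factors, filters, controls and covariates, and leaving out each library. The fits were also run on simulated counts with known changes, and the outcome is not reported here. Promoters were searched with Python 3.11.15, and transcripts were aligned with Biopython 1.88.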

Additional observations from a re-analysis of the deposited data

Results flagged for a closer look

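Mrc1 lay on opposite sides of its controls in the genotypes: every treated B6 library lay below every library of control set 1, and every treated mutant library lay above every untreated mutant library. The difference between the responses was 0.50 on the log2 scale and missed the threshold in edgeR's quasi-likelihood test (adjusted p = 0.112). The log2 FC was -0.12 in B6 (adjusted p = 0.338) and 0.38 in mutants (adjusted p = 0.0915), so neither response passed the threshold on its own. The B6 direction turned with control set 2 (0.06), whose libraries overlapped treated B6, and with the GC correction (0.05), and the difference was then 0.33 (adjusted p = 0.286) and 0.36 (adjusted p = 0.353).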

How the results depend on the processing

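Each group held 3 libraries, and the parts of library spread and of depth in the number of calls were not tested. Percentages in brackets give the share of all genes tested that passed in the same fit, in either direction. In B6, the genes called with treatment were 0 in the reported fit (0.0475%), 4 at an adjusted p under 0.05 with no fold limit (8.46%), 3 with DESeq2 (3.49%) and 3 with the exact test (3.64%). They were 1 with all 15 libraries in 1 fit (2.4%), 1 with control set 2 (0.572%, median log2 FC 0.64) and 2 with both control sets (1.95%). In mutants, 7 (0.252%) became 18 at an adjusted p under 0.05 (2.37%), 15 with DESeq2 (1.74%) and 16 with the exact test (1.96%). They became 3 with all 15 libraries in 1 fit (0.226%) and 2 with log2 Xist as a covariate (0.118%). Leaving out 1 library gave 0 to 7 calls in mutants, where 0% to 0.481% of all genes were called. The count was 0 without untreated library 1, 2 or 3 or treated library 2. For the comparison of untreated genotypes the count was 1 at an adjusted p under 0.05 (1.25%), and the median was -0.19 with control set 1 and -0.075 with both sets. The median difference between responses was -0.042 with control set 2. Treated genotypes had 1 gene at an adjusted p under 0.05 (2.05%), and the control sets had 2 calls with DESeq2 (1.16%) and 1 with the exact test (1.3%).

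Leaving out 1 library at a time, the median log2 FC was 0.22 to 0.49 in B6, 0.52 to 0.64 in mutants, 0.0078 to 0.25 between untreated genotypes, 0.10 to 0.41 for the difference between responses (highest without treated B6 library 2), -0.06 to 0.19 between treated genotypes and -0.44 to -0.21 between control sets. Calls stayed at 0 in each of these except in mutants. Over all genes, the fits without a call among the members called 0% to 1.2%.

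Over all members and alternatives, the sign turned for 215 of 3406 values, and 1 of these had an adjusted p under 0.05 (Clec7a between untreated genotypes, lower with control set 1). For the genes with full statistics it turned for 15 values, none of which was called. Between untreated genotypes, Lilrb4 was -0.32 with control set 1 and -0.0068 with both sets, and Lyz1 was -0.18 and -0.052. For the difference between responses, Itgax was -0.019 and Lyz1 -0.014 with control set 2. Leaving out 1 library at a time, Itgam ran from -0.085 to 0.0088 between untreated genotypes (above 0 without control set 2 library 3, and 0.0055 without untreated mutant library 1). It ran from -0.068 (without treated B6 library 1) to 0.49 for the difference between responses. Between treated genotypes Itgam ran from -0.16 (without treated B6 library 1) to 0.40 (without treated B6 library 2) and was also below 0 without treated B6 library 3 (-0.041) or treated mutant library 3 (-0.017), and Lyz1 ran from -0.029 (without treated B6 library 1) to 0.22. Between control sets, Itgam ran from -0.091 to 0.011 (above 0 without control set 2 library 2) and was 0.0031 with the Xist covariate. The cause was not tested. Of the other alternative values of these genes, 805 kept direction and side of the threshold, 22 passed it and 33 no longer did.

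The replicate numbers of the labels did not pair the samples (correlations of same-numbered deviations from -0.223 to 0.248). With the replicate block, the calls were 0 in B6 (0.0395% of all genes), 7 in mutants (0.378%) and 0 in the other comparisons (0.016% to 0.35%). The medians were 0.38 (B6), 0.59 (mutants), 0.12 (untreated genotypes), 0.19 (difference), 0.06 (treated genotypes) and -0.28 (control sets). The 4 genes at an adjusted p under 0.05 in B6 became 0 under the block (0.482% of all genes). The adjusted p of Ctss in edgeR became 0.0662 between untreated and 0.0728 between treated genotypes (0.0541 and 0.0957 with the GC correction as well).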
